A study of Mus musculus with 24 samples.

Results

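The enzymes and receptors of prostaglandin and leukotriene metabolism were followed in 10 genes of the 24411 in the deposited tables: *Ptgs1*, *Ptgs2*, *Ptges*, *Ptgds*, *Hpgds*, *Ptger2*, *Ptger4*, *Hpgd*, *Alox5* and *Alox5ap*. They were chosen by their place in the pathway and with measured values of these libraries in view, among them the low level of *Hpgd* in lipopolysaccharide (LPS)-treated WT microglia. The comparison of LPS-treated with quiescent WT microglia is therefore described for these 10 genes with values and fold changes and with no test, and comparisons that use its libraries again are not independent of that choice.

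Arachidonic acid cut from membrane phospholipids is the starting material of both branches. Cyclooxygenases turn it into prostaglandin H, which terminal synthases convert to prostaglandin E or D, and 15-hydroxyprostaglandin dehydrogenase inactivates the products after they have acted on their receptors. 5-lipoxygenase, with its activating protein, opens the leukotriene branch, and in the brain microglia and other myeloid cells are known as the main holders of that branch.

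Primary mouse glia were cultured in serum-free medium and profiled by bulk RNA-seq, with 3 libraries in each of 7 conditions. Astrocytes were immunopanned with antibody to HepaCAM after negative panning with CD45, BSL I and O4, and the study's methods give postnatal day 5 WT forebrains as their source. Microglia were collected from whole brains of mice at postnatal days 7 to 10 by magnetic sorting with CD11b. Quiescent WT astrocytes and quiescent *SOD1* G93A astrocytes received PBS, and activated WT astrocytes and activated *SOD1* G93A astrocytes received C1q at 400 ng/mL with the cytokines TNFα at 30 ng/mL and IL-1α at 3 ng/mL. Quiescent WT microglia received PBS, and LPS-treated WT microglia and LPS-treated *SOD1* G93A microglia received LPS (50 ng/mL). The *SOD1* G93A mice carry a mutant human *SOD1* transgene, bred onto C57BL/6J in the study, and neither the duration of treatment nor the age of the *SOD1* G93A astrocyte donors is in the labels. The labels also do not say whether the replicates are separate cultures or animals, so the p values measure the spread between libraries.

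Levels are given in RPM (reads-per-million), the reads of a gene scaled by the total of reads on all genes in that library, and levels of different genes are compared only per kilobase of exon length. Libraries held 2016139 to 11570122 reads on genes, with a median of 5098168. A level of 0 allows up to 3 reads at the depth of the group. Such floors cover counting error only. Changes are log2 differences fitted by limma to log2 normalized counts across all genes whose normalized counts, averaged over the libraries of both groups, reached 10. To be called, a gene had to differ by more than 2-fold and have a Benjamini-Hochberg adjusted p value under 0.001. An exact test of 3 against 3 libraries for a single gene cannot go below p = 0.1 (two-sided), so the adjusted p values of the fit are given.

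Some libraries stood apart from the others of their condition. Replicate 3 of the LPS-treated *SOD1* G93A microglia had lower levels of the 1107 other genes that rose in WT microglia under LPS, with a median log2 difference of −0.43 from the other LPS libraries, where the other 5 lay between 0.02 and 0.17. For the 1148 other genes that fell, its median was 0.45, against −0.18 to 0.02 in the other 5. Replicate 1 of the LPS-treated WT microglia lay apart as well. Its chi-squared per degree of freedom over genes was 15.05 against replicate 2 and 13.8 against replicate 3, which had 1.65 between them, and *SOD1* G93A replicate 3 had 16.8 and 21.7, where the other *SOD1* G93A pair had 2.41. Quiescent astrocyte libraries also differed among themselves. By the same measure WT replicate 3 had 9.455 against replicate 1 and 6.822 against replicate 2, which had 2.08 between them. *SOD1* G93A replicate 1 had 6.773 and 10.38 against replicates 2 and 3, which had 2.88 between them. Deviations from the group mean over 12536 genes were alike in WT replicate 1 and *SOD1* G93A replicate 3 (Pearson r across genes of 0.40) and in WT replicate 3 and *SOD1* G93A replicate 1 (0.54), and genes are not independent replicates. The scale itself also moved. On the RPM scale the median of all genes tested differed by −0.21 (log2) between LPS-treated and quiescent WT microglia and by −0.62 between quiescent WT microglia and astrocytes, while the fitted values had medians of 0.00 and −0.04.

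In quiescent WT microglia the highest mean level per kilobase was that of *Hpgd*, the prostaglandin-inactivating dehydrogenase, at 354 RPM per kilobase, followed by *Alox5ap*, the 5-lipoxygenase-activating protein, at 78.4. *Hpgds*, *Ptgs2* and *Ptgs1* came next at 20.1, 19.5 and 18.2 RPM per kilobase, with libraries that overlap. In LPS-treated WT microglia the order per kilobase opened with *Ptgs2* at 2017 and *Ptges* at 309, and *Hpgds* followed at 13.3. Quiescent WT astrocytes had *Ptgds* at 23.1, *Ptgs2* at 13.3 and *Hpgd* at 4.61 RPM per kilobase at the top, and activated WT astrocytes had *Ptgs2* at 69.1, *Ptgds* at 10.6 and *Ptges* at 9.08. The dehydrogenase that led in quiescent microglia thus stood at 5.51 RPM per kilobase in the LPS-treated ones, where the inducible prostaglandin E enzymes led.

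**Figure D1:**
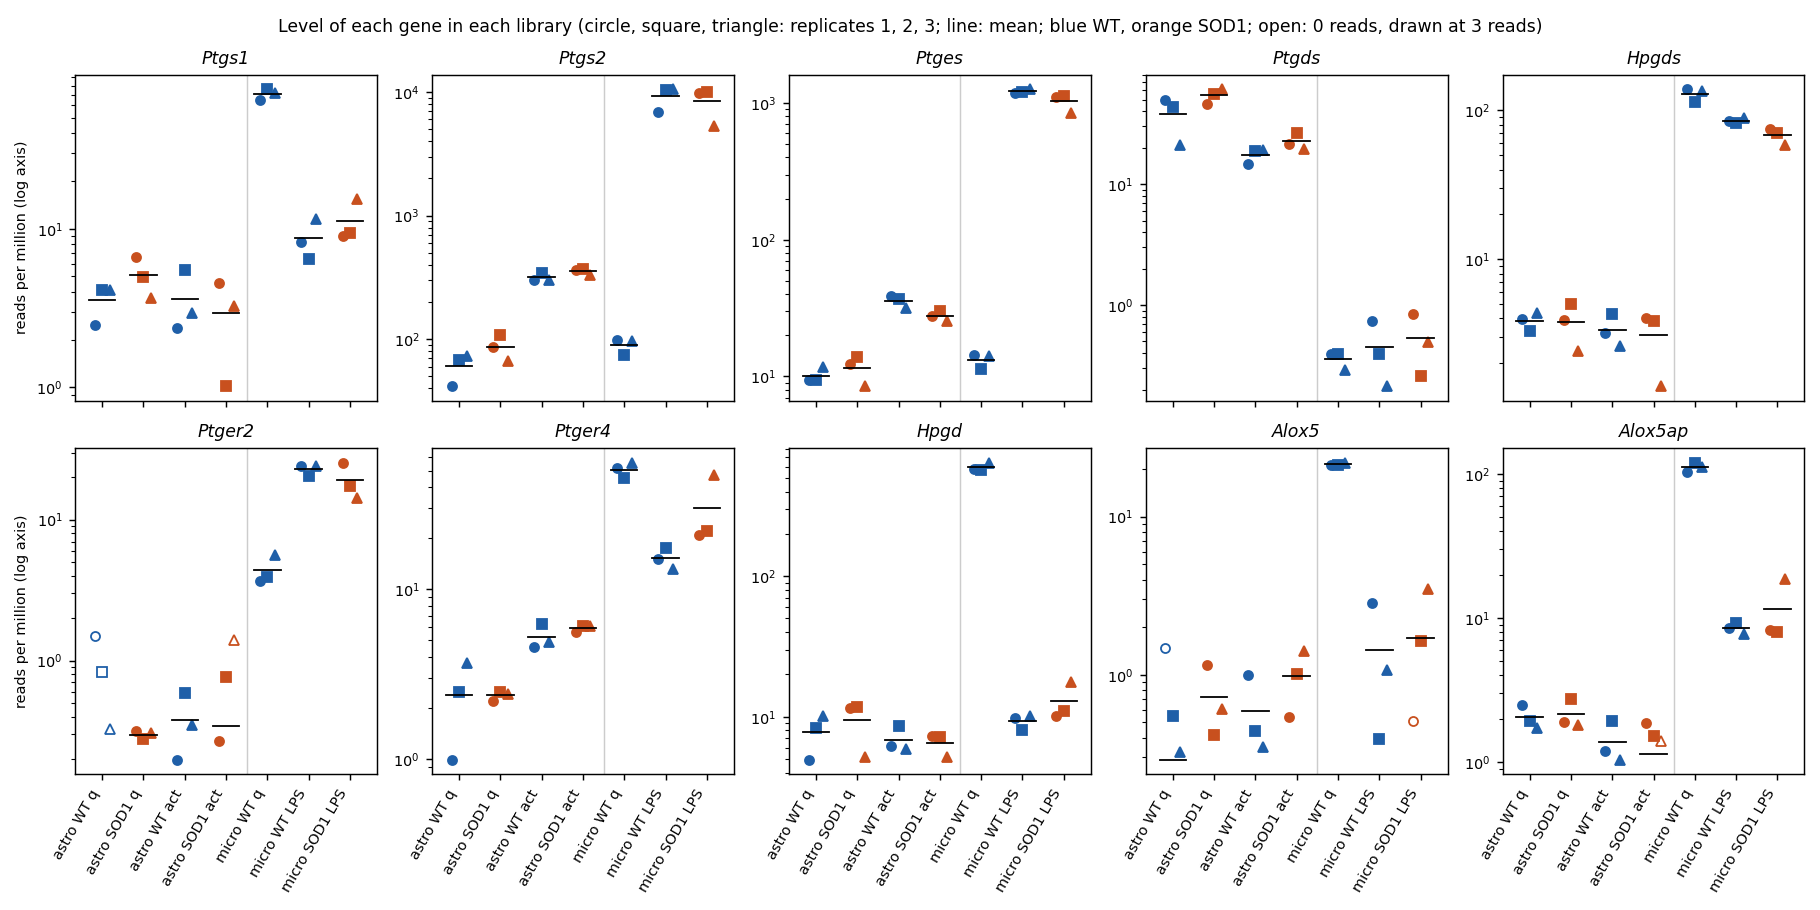
Level of each of the 10 genes in RPM on a log axis, with 1 symbol per library (circle, square and triangle for replicates 1, 2 and 3), a line at each group's mean, WT in blue and *SOD1* G93A in orange, astrocytes left of the grey line and microglia right of it. Open symbols mark 0 reads and are drawn at 3 reads of that library. *Ptgs2* lies between 6876 and 10519.9 in LPS-treated WT microglia and *Hpgd* between 8.04 and 10.1.

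*Ptgs2* encodes the inducible cyclooxygenase. Its level was 41.7, 67.6 and 73.7 RPM in the quiescent WT astrocyte libraries and 303, 344 and 302 in the activated ones. In *SOD1* G93A astrocytes it was 86.4, 107 and 65.9 when quiescent and 361, 369 and 329.7 when activated. In both genotypes every activated library lay far above every quiescent one, and replicate 1 was the lowest of the quiescent WT libraries. *Ptgs2* rose with activation in WT astrocytes by a log2 difference of 2.44 (SE 0.19, adjusted p = 1.8e-06, limma), and in *SOD1* G93A astrocytes by 2.13 (SE 0.14, adjusted p = 3.9e-09, limma). On the scale of mean RPM these are 5.19-fold and 4.09-fold.

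Of the 10 genes, 7 passed the filter on low values in WT astrocyte activation, and 2 of them were called higher, where 5.999% of the 12336 genes tested were. None of the 7 was called lower, against 5.54% of all genes, and DESeq2 called 3 in all. An unadjusted p value under 0.05 in limma was reached by 4 of the 7 and by 46.8% of all genes. In *SOD1* G93A astrocyte activation 7 passed the filter as well, and 2 were called higher (6.74% of the 12203 genes tested) and 1 lower (6.40%). Called in both comparisons were *Ptgs2* and *Ptges*, the inducible genes of prostaglandin E synthesis, and *Ptgds* was the gene called lower. *Ptger2*, *Alox5* and *Alox5ap* were under the filter in both.

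In microglia *Ptgs2* stood at 97.8, 74.5 and 96.1 RPM in the quiescent WT libraries and 6876, 10318 and 10519.9 in the LPS-treated WT libraries. The LPS-treated *SOD1* G93A libraries had 9912, 9966 and 5342. Replicate 1 was the lowest of the LPS-treated WT libraries and replicate 3 the lowest of the *SOD1* G93A ones, and the LPS-treated genotypes overlapped. The WT means were 89.5 ± 13.0 (SD, n = 3) and 9238 ± 2048 (SD, n = 3), 103-fold apart, and the fitted log2 difference was 6.89, or 7.10 without WT replicate 1 of the LPS-treated libraries. Over all conditions the order of means was LPS-treated WT and *SOD1* G93A microglia, whose libraries overlap, then activated *SOD1* G93A and activated WT astrocytes, which overlap as well. Quiescent WT microglia, quiescent *SOD1* G93A astrocytes and quiescent WT astrocytes followed, each overlapping the next.

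In WT microglia under LPS, 9 of the 10 genes passed the filter on low values, and *Ptgds* did not. Described with no test, 3 genes stood more than 2-fold higher (11.6% of the 10866 genes in the fit did) and 5 more than 2-fold lower (13.1%). The 3 higher were *Ptgs2*, *Ptges* and *Ptger2*, the 5 lower *Ptgs1*, *Ptger4*, *Hpgd*, *Alox5* and *Alox5ap*, and *Hpgds* lay within 2-fold. Nothing is read from these counts, since the comparison was in view when the genes were listed. Bulk libraries cannot tell fewer cells of a type from less RNA per cell.

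*Ptgs1*, the constitutive cyclooxygenase, stood at 64.9, 75.7 and 71.9 RPM in quiescent WT microglia. In the LPS-treated WT libraries it was 8.25, 6.47 and 11.6, and in the LPS-treated *SOD1* G93A libraries 8.96, 9.42 and 15.3. Every LPS-treated library was far below every quiescent one, and the LPS-treated genotypes overlapped. The fitted log2 difference under LPS in WT cells was −2.81. In astrocytes the gene was low, 1.02 to 6.61 RPM over the 12 libraries, and the 4 astrocyte conditions overlapped. Its log2 difference with activation was −0.02 in WT astrocytes (adjusted p = 0.98, limma) and −0.83 in *SOD1* G93A astrocytes (adjusted p = 0.15). The astrocyte cultures also held microglial markers, and the part of such cells in the astrocyte level of *Ptgs1* was not tested.

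The balance of the cyclooxygenases within each library followed from these levels. The ratio of *Ptgs2* to *Ptgs1* per kilobase was 1.28, 0.835 and 1.13 in the quiescent WT microglia libraries and 707, 1352 and 772 in the LPS-treated ones. In LPS-treated *SOD1* G93A microglia it was 938, 897 and 295. Resting microglia therefore held both transcripts at like levels, and LPS-treated microglia held the inducible one in large excess, with replicate 3 of the *SOD1* G93A libraries lowest. Quiescent astrocytes already had more *Ptgs2* than *Ptgs1*, with ratios of 14.2, 13.9 and 15.2 in WT and 11.1, 18.3 and 15.3 in *SOD1* G93A libraries. After activation the ratios were 108, 53.4 and 86.7 in WT and 67.0, 308 and 85.3 in *SOD1* G93A astrocytes, and the highest of these rests on 4 reads of *Ptgs1*.

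*Ptges* encodes microsomal prostaglandin E synthase, the inducible terminal enzyme that works with *Ptgs2*. It stood at 9.42, 9.35 and 11.7 RPM in quiescent WT astrocytes and 38.6, 36.6 and 31.8 in activated ones. The *SOD1* G93A libraries had 12.3, 13.8 and 8.505 when quiescent and 27.7, 30.3 and 25.3 when activated. Activated libraries lay above quiescent ones in both genotypes, without overlap. Of all genes, 50.9% in WT and 52.0% in *SOD1* G93A astrocytes did not overlap between states. *Ptges* rose by a log2 difference of 1.82 in WT astrocytes (SE 0.15, adjusted p = 3.7e-06, limma) and 1.35 in *SOD1* G93A astrocytes (SE 0.19, adjusted p = 1.9e-05). The *SOD1* G93A call was lost in limma without a trend, where the adjusted p value was 0.0013, and adjusted p values over all alternatives for it ran from 9.1e-08 to 0.0013.

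In quiescent WT microglia *Ptges* was at 14.3, 11.4 and 14.1 RPM, overlapping its levels in quiescent astrocytes on that scale. As normalized for the fit the quiescent WT microglial and astrocyte libraries did not overlap (means of 77.2 and 39.7). The same was so for 81.4% of all genes tested between these cell types. The LPS-treated WT libraries had 1189.9, 1198 and 1260.1, and the LPS-treated *SOD1* G93A libraries 1117, 1136 and 846. The WT libraries were tightly grouped, and the *SOD1* G93A libraries lay below them, with replicate 3 the lowest. Of all genes tested, 18.2% did not overlap between these genotypes. The WT mean after LPS was 1216 ± 38.4 (SD, n = 3), 91.7-fold the quiescent mean, and the fitted log2 difference was 6.72. The order of means was LPS-treated WT microglia, LPS-treated *SOD1* G93A microglia, activated WT astrocytes and activated *SOD1* G93A astrocytes, with no overlap between neighbours, and then the quiescent conditions, which overlap in RPM.

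*Ptgds* encodes the lipocalin-type prostaglandin D synthase, a secreted enzyme of brain and meninges. Quiescent WT astrocytes had 49.6, 43.7 and 21.1 RPM and activated ones 14.7, 18.6 and 19.3. In *SOD1* G93A astrocytes the values were 45.9, 55.6 and 60.7 and, after activation, 21.5, 26.5 and 19.7. Replicate 3 of the quiescent WT libraries was well below the other replicates and lay just above the activated libraries, while the *SOD1* G93A states were well apart. *Ptgds* fell with activation in *SOD1* G93A astrocytes by a log2 difference of −1.18 (SE 0.14, adjusted p = 3.7e-06, limma). In WT astrocytes the difference was −1.01 (SE 0.26, adjusted p = 0.010) and was not called. Without WT quiescent replicate 3 it was −1.36 with an adjusted p value of 2.8e-06 and was called, and DESeq2 called it with all libraries (−1.05, adjusted p = 0.00032). Its adjusted p values over all alternatives ran from 2.8e-06 to 0.057.

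Microglia held almost no *Ptgds*, 1 to 6 reads in each of the 9 libraries, or 0.214 to 0.845 RPM, with all 3 microglial conditions overlapping. *Hpgds*, the hematopoietic prostaglandin D synthase, had the opposite distribution. It stood at 138, 114 and 136 RPM in quiescent WT microglia and 84.8, 82.8 and 88.6 in LPS-treated ones. In the *SOD1* G93A libraries after LPS it was 75.2, 70.0 and 58.4. The order was quiescent WT, LPS-treated WT and LPS-treated *SOD1* G93A microglia with no overlap between neighbours. Of all genes tested, 64.6% did not overlap between the WT states and 18.2% between the LPS-treated genotypes. The WT change under LPS had a fitted log2 difference of −0.38. Between the LPS-treated genotypes it was −0.33 (adjusted p = 0.57, limma), not called, and −0.21 without *SOD1* G93A replicate 3. All 12 astrocyte libraries lay at 1.40 to 4.96 RPM, and their 4 conditions overlapped. The log2 difference of *Hpgds* with activation was −0.19 in WT (adjusted p = 0.66, limma) and −0.26 in *SOD1* G93A astrocytes (adjusted p = 0.64).

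Among the terminal synthases the ratio of *Hpgds* to *Ptges* per kilobase was 5.93, 6.16 and 5.87 in quiescent WT microglia and 0.0436, 0.0423 and 0.0430 in LPS-treated ones. The *SOD1* G93A libraries treated with LPS had 0.0412, 0.0377 and 0.0422. The microglial libraries thus went from more transcript of the D synthase to more of the E synthase, and replicate 3 of the *SOD1* G93A libraries did not stand apart in this ratio. In quiescent WT astrocytes the same ratio was 0.258, 0.216 and 0.227.

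**Figure D2:**
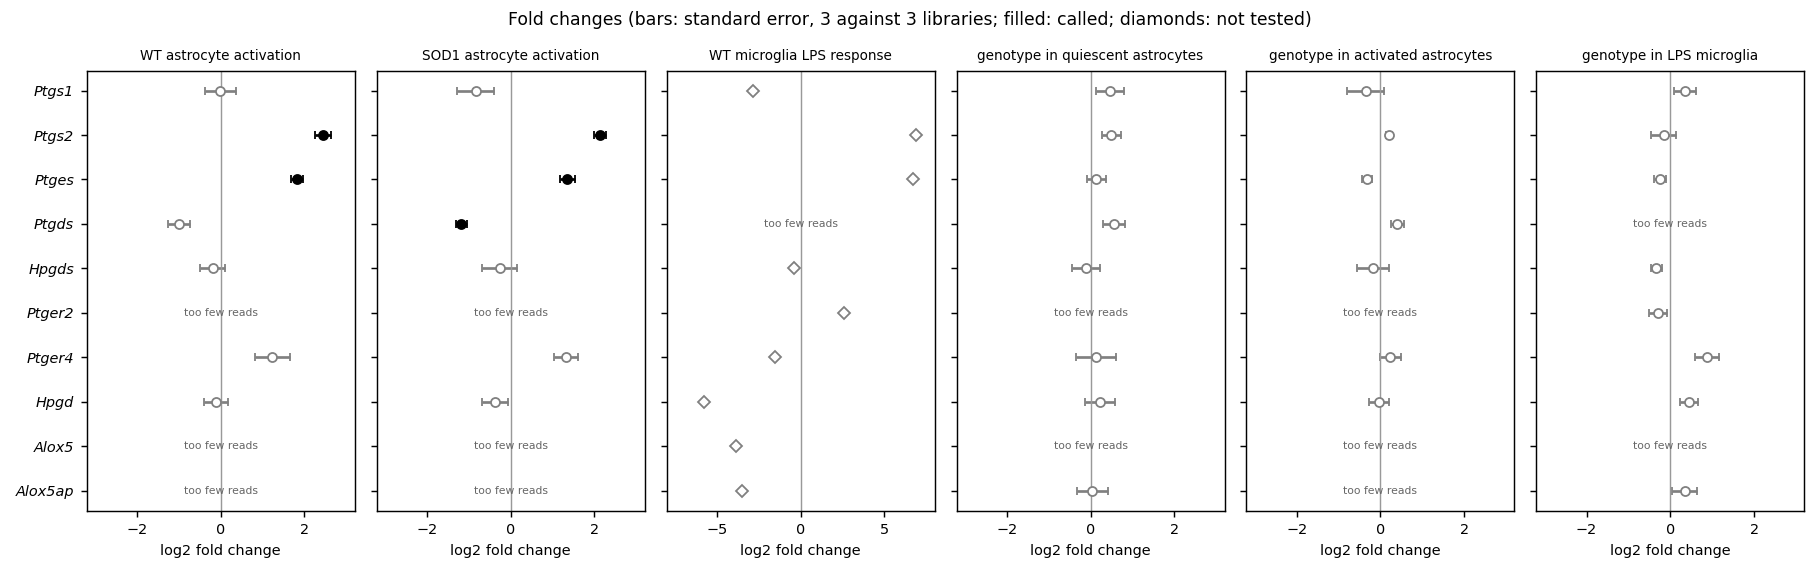
Fitted log2 fold change of each gene in 6 comparisons, with bars for the standard error of 3 against 3 libraries, filled circles for called changes, open circles for changes tested and not called, and diamonds for the LPS comparison in WT microglia, which was not tested. Activation comparisons are activated minus quiescent, genotype comparisons are *SOD1* G93A minus WT, and genes with too few reads are marked as such. *Ptgs2* and *Ptges* are filled in both astrocyte panels, at 2.44 and 1.82 in WT.

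*Ptger2* and *Ptger4* encode the prostaglandin E receptors EP2 and EP4, which raise cyclic AMP. *Ptger2* stood at 3.64, 3.92 and 5.62 RPM in quiescent WT microglia and 24.0, 20.4 and 24.2 after LPS. The *SOD1* G93A libraries had 25.4, 17.5 and 14.3 after LPS. LPS-treated libraries of both genotypes were above the quiescent ones, and the genotypes overlapped. The WT means were 4.39 ± 1.07 (SD, n = 3) and 22.9 ± 2.13 (SD, n = 3), with a fitted log2 difference of 2.56. Astrocytes had almost none. All 3 quiescent WT libraries held 0 reads of *Ptger2*, which allows up to 0.201 RPM over the group, and no other astrocyte library held more than 4.

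*Ptger4* went the other way in microglia. Quiescent WT microglia had 51.7, 45.1 and 55.8 RPM and LPS-treated WT microglia 15.1, 17.7 and 13.3. In *SOD1* G93A microglia under LPS it was 20.8, 22.2 and 47.0. The LPS-treated WT libraries were the lowest of the 3 microglial conditions, and *SOD1* G93A replicate 3 reached the quiescent range. The fitted log2 difference under LPS in WT cells was −1.51. The ratio of *Ptger4* to *Ptger2* per kilobase was 11.1, 8.98 and 7.75 in quiescent and 0.493, 0.676 and 0.429 in LPS-treated WT microglia, so that the receptor transcripts changed places. In the LPS-treated *SOD1* G93A libraries it was 0.641, 0.994 and 2.56, above 1 in replicate 3 alone.

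In astrocytes *Ptger4* was low, with higher values after activation. The quiescent WT libraries had 0.992, 2.47 and 3.67 RPM and the activated ones 4.56, 6.21 and 4.87. In *SOD1* G93A astrocytes the values were 2.20, 2.48 and 2.43 when quiescent and 5.64, 6.11 and 6.09 when activated. States did not overlap in either genotype, as was so for 50.9% of all genes in WT and 52.0% in *SOD1* G93A astrocytes, and the quiescent *SOD1* G93A libraries were closely grouped where the WT ones were spread. The log2 difference was 1.23 in WT astrocytes (SE 0.43, adjusted p = 0.040, limma) and 1.32 in *SOD1* G93A astrocytes (SE 0.29, adjusted p = 0.0016), and limma called neither. The *SOD1* G93A difference was called by edgeR (1.38, adjusted p = 0.00093), after quantile normalization (1.42, adjusted p = 0.00094) and in limma without a trend (adjusted p = 5.0e-05), and its adjusted p values over all alternatives ran from 5.0e-05 to 0.0094.

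*Hpgd* encodes the dehydrogenase that inactivates prostaglandin E, the main step of prostaglandin breakdown. Quiescent WT microglia had 578, 567 and 640.0 RPM, and LPS-treated WT microglia 9.73, 8.04 and 10.1. LPS-treated *SOD1* G93A microglia had 10.1, 11.1 and 17.6. The quiescent libraries were tightly grouped and far above all others, and among the LPS-treated libraries *SOD1* G93A replicate 3 was the highest. The WT means were 595 ± 39.4 (SD, n = 3) and 9.27 ± 1.08 (SD, n = 3), 64.2-fold apart, with a fitted log2 difference of −5.77.

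Astrocytes held little *Hpgd* in any state. Quiescent WT astrocytes had 4.96, 8.25 and 10.04 RPM and activated ones 6.14, 8.57 and 5.91. The *SOD1* G93A libraries had 11.5, 11.7 and 5.16 when quiescent and 7.25, 7.13 and 5.15 when activated. The states overlapped in both genotypes. These levels also overlapped those of LPS-treated WT microglia, except in activated *SOD1* G93A astrocytes, whose libraries all lay below them. The log2 difference with activation was −0.11 in WT (adjusted p = 0.80, limma) and −0.37 in *SOD1* G93A astrocytes (adjusted p = 0.34). Summed levels of 12 microglial markers in the same astrocyte cultures were 171, 242 and 307 RPM in the quiescent WT libraries and 383, 400.2 and 269 in the quiescent *SOD1* G93A libraries. Replicate 1 was lowest for both *Hpgd* and the markers in WT, and replicate 3 was lowest for both in *SOD1* G93A. The part of the marker-bearing cells in the astrocyte level of *Hpgd* was not tested. Nor was it for *Ptgs1*, *Hpgds*, *Ptger4* and *Alox5ap*, which were also low in astrocytes and higher in quiescent microglia.

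Synthesis and breakdown of prostaglandin E can be set side by side as the ratio of *Ptges* to *Hpgd* per kilobase within each library. It was 0.0106, 0.00859 and 0.00945 in quiescent WT microglia and 52.4, 63.8 and 53.7 in LPS-treated ones. With LPS in *SOD1* G93A microglia it was 47.2, 44.0 and 20.6. The dehydrogenase transcript was thus in excess in every quiescent microglial library and the synthase transcript in every LPS-treated one. In astrocytes the ratio was 0.813, 0.485 and 0.497 in quiescent WT and 0.455, 0.504 and 0.705 in quiescent *SOD1* G93A libraries. After activation it was 2.69, 1.83 and 2.30 in WT and 1.63, 1.82 and 2.10 in *SOD1* G93A libraries, on the other side of 1 in each.

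**Figure D3:**
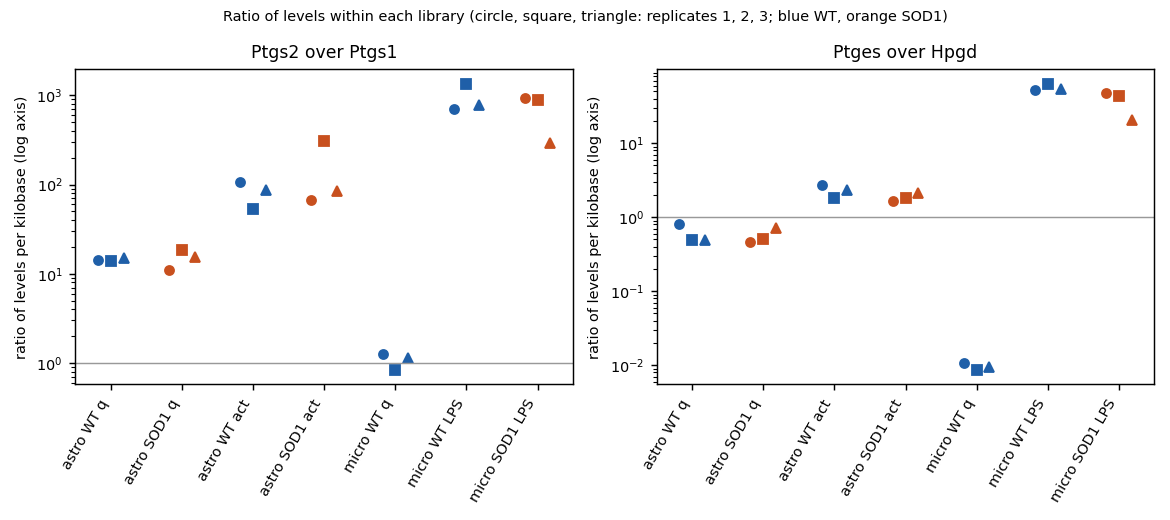
Ratio of levels per kilobase within each library on a log axis, *Ptgs2* over *Ptgs1* on the left and *Ptges* over *Hpgd* on the right, with 1 symbol per library (circle, square and triangle for replicates 1, 2 and 3), WT in blue, *SOD1* G93A in orange and a grey line at a ratio of 1. *Ptges* over *Hpgd* lies between 0.00859 and 0.0106 in quiescent and between 52.4 and 63.8 in LPS-treated WT microglia.

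*Alox5* encodes 5-lipoxygenase and *Alox5ap* the membrane protein that presents arachidonic acid to it. *Alox5ap* stood at 103, 119.6 and 112 RPM in quiescent WT microglia and 8.496, 9.22 and 7.70 in LPS-treated ones. LPS-treated *SOD1* G93A microglia had 8.28, 7.95 and 18.6. The quiescent libraries were far above the others, and replicate 3 was again the highest of the *SOD1* G93A libraries. *Alox5* was at 21.1, 21.2 and 21.9 RPM in quiescent and 2.83, 0.392 and 1.07 in LPS-treated WT microglia. In LPS-treated *SOD1* G93A microglia it was at 0, 1.64 and 3.46, with no read in replicate 1. The fitted log2 differences under LPS in WT cells were −3.48 for *Alox5ap* and −3.87 for *Alox5*. The LPS-treated WT libraries held 23, 2 and 5 reads of *Alox5*, and over the alternatives its difference ran from −4.48, without replicate 1 of them, to −3.25.

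Per kilobase *Alox5ap* exceeded *Alox5* by ratios of 14.1, 16.3 and 14.8 in the quiescent microglial libraries. Astrocytes held few reads of either gene. *Alox5ap* was at 0 to 2.76 RPM over the 12 astrocyte libraries, with 20 reads at most, and *Alox5* at 0 to 1.40, with 11 reads at most. Both genes were under the filter on low values in the activation comparisons and were not tested there. For both genes quiescent WT microglia came first in the order of levels and did not overlap the LPS-treated conditions, which overlapped each other.

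In the comparison of quiescent WT microglia with quiescent WT astrocytes all 10 genes passed the filter on low values. Described with no test, 8 stood more than 2-fold higher in microglia and 1 more than 2-fold lower. Of the 12064 genes in the fit, 2821 and 3332 did. Normalized means were under 10 for *Ptger2*, *Alox5*, *Alox5ap* and *Ptger4* in astrocytes and for *Ptgds* in microglia. These genes thus passed the filter through a single cell type. These microglial libraries were among those in view when the genes were listed, so nothing is read from the counts, and the values of the 10 genes are given with no p value. The gene with the higher level in astrocytes was *Ptgds*, with a fitted log2 difference of −5.51 (−6.13 to −4.35 over the alternatives). No quiescent microglial library held more than 4 reads of it. *Alox5ap*, *Alox5*, *Hpgds*, *Ptger4* and *Ptgs1* were higher in microglia by log2 differences of 6.19, 6.02, 5.56, 5.00 and 4.83. The value of *Alox5* rests on 5 reads in all in the quiescent WT astrocyte libraries and ran from 4.41 to 6.55 over the alternatives. *Ptger2* was at least 21.8-fold higher in RPM, as the astrocyte libraries held 0 reads and the floor of 3 reads over the group stands in for them. For *Hpgd* the difference was 6.85. Cell type, isolation, age and medium differ together in this comparison and cannot be told apart.

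The inducible genes were the ones closest between quiescent cell types. The fitted log2 difference of *Ptgs2* was 1.16 (SE 0.21), higher in microglia, while its means in RPM differed 1.47-fold. Over the alternatives it ran from 0.85 after quantile normalization to 1.35 without astrocyte replicate 3, and was 0.89 without astrocyte replicate 1. The difference of *Ptgs2* was thus under 2-fold after quantile normalization and without astrocyte replicate 1. As for the other genes in this comparison, no call is read from it. For *Ptges* the difference was 0.95 (SE 0.19), with 0.88 to 1.44 over the alternatives. It was over 2-fold after quantile normalization (1.44) and without astrocyte replicate 3 (1.08).

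After stimulation the cell types were further apart in the prostaglandin E genes. LPS-treated WT microglia had 29.2-fold the *Ptgs2* and 34.1-fold the *Ptges* of activated WT astrocytes in mean RPM, while *Hpgd* differed 1.35-fold. The stimuli differ between the cell types as well, so these levels stand side by side with no test.

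The genotype comparisons set *SOD1* G93A against WT cells in the same state. In quiescent astrocytes 8 of the 10 genes passed the filter, and limma called 0, as it did for 0% of the 12271 genes tested in either direction. Of all genes, 1068 had an unadjusted p value under 0.05, with 0 of the 8 among them. DESeq2 gave 2 of the genes an unadjusted p value under 0.05 and called 0 of them, and edgeR gave 0 and called 0. The log2 difference, *SOD1* G93A minus WT, was 0.49 for *Ptgs2* (adjusted p = 0.58) and 0.56 for *Ptgds* (adjusted p = 0.58), and the libraries of the genotypes overlapped for both. These are the libraries whose deviations were alike across the genotypes, and the fit took them as unpaired. Whether libraries of the genotypes were prepared in matched sets is not in the labels. WT replicate 1 and *SOD1* G93A replicate 3, which were alike, had *Ptgs2* at 41.7 and 65.9 and *Ptgds* at 49.6 and 60.7 RPM. WT replicate 3 and *SOD1* G93A replicate 1 had *Ptgs2* at 73.7 and 86.4 and *Ptgds* at 21.1 and 45.9. Both genes were higher in *SOD1* G93A replicate 2 than in WT replicate 2 as well. *Ptges* was lower in the first of these sets, at 9.42 and 8.505. A fit with the replicate number as a block also called 0, and one with the libraries that were alike as a block was not run. Of the microglial markers, 10 of 10 tested were higher in the *SOD1* G93A libraries, with a median of 0.57 and 5 at an unadjusted p value under 0.05 (8.70% of all genes). Of the astrocyte markers 3 of 11 tested had one (median −0.27), and of the oligodendrocyte lineage markers 5 of 10 (median −0.21). Their part in these differences was not tested.

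In activated astrocytes 7 genes passed the filter. Limma called 0 of them, against 0.521% of the 12098 genes tested called higher and 0.124% called lower in *SOD1* G93A cells. An unadjusted p value under 0.05 was reached by 3 of the 7 in limma, 2 in DESeq2 and 3 in edgeR, and neither of the other tools called any. In limma 2464 of all genes, or 20.4%, reached it too. The 3 in limma were *Ptgs2* with a log2 difference of 0.20 (SE 0.06, adjusted p = 0.067), *Ptges* with −0.32 (SE 0.11, adjusted p = 0.11) and *Ptgds* with 0.40 (SE 0.15, adjusted p = 0.13). For *Ptges* every *SOD1* G93A library lay below every WT one, for *Ptgds* every one lay above, and for *Ptgs2* the genotypes overlapped. Of all genes tested, 24.1% did not overlap between these groups. Cell markers differed as well. Of the neuronal markers 5 of 7 tested had an unadjusted p value under 0.05, with a median log2 difference of −0.71, 1 higher in *SOD1* G93A cells and *Dcx*, named after its values were seen, called lower. Of the astrocyte markers 6 of 10 had one (median 0.08), of the oligodendrocyte lineage markers 4 of 10 (median 0.05) and of the microglial markers 0 of 10 (median −0.13, 1 higher). Their part in the differences of the 3 genes was not tested.

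Whether the activation response itself differs between genotypes was tested as an interaction over the 12 astrocyte libraries. Limma called 0 of the 7 genes with a value, and 0% of the 12269 genes tested in either direction. Whatever their fold change, 34 of all genes had an adjusted p value under 0.05, and 1018 had an unadjusted one, with 0 of the 7 among the latter. EdgeR called 4 genes, none of them among the 7, and gave 1070 genes and 0 of the 7 an unadjusted p value under 0.05. The response of *SOD1* G93A minus that of WT was −0.46 for *Ptges* (SE 0.25, adjusted p = 0.67, limma) and −0.29 for *Ptgs2* (SE 0.26, adjusted p = 0.80). For *Ptgds* it was −0.16 (adjusted p = 0.92), so the call in one genotype and not in the other is no shown difference.

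In LPS-treated microglia 8 genes passed the filter, and limma called 0, as it did for 0% of the 10679 genes tested in either direction. Over all genes 930 had an unadjusted p value under 0.05. Of the 8 genes, 2 did so in limma, in DESeq2 and in edgeR alike, and DESeq2 and edgeR called 0 of them. The 2 in limma were *Ptger4*, with a log2 difference of 0.87 (SE 0.28, adjusted p = 0.57), and *Hpgds*, with −0.33 (SE 0.13, adjusted p = 0.57). Without *SOD1* G93A replicate 3 these were 0.51 (adjusted p = 0.86) and −0.21 (adjusted p = 0.89), and again 0 of the genes were called. Adjusted p values over all alternatives ran from 0.47 to 0.86 for *Ptger4* and from 0.49 to 0.89 for *Hpgds*. The log2 difference was 0.44 for *Hpgd* and −0.16 for *Ptgs2* with all libraries, and 0.22 and 0.15 without that replicate. It was 0.36 for *Ptgs1*, −0.24 for *Ptges*, −0.29 for *Ptger2* and 0.34 for *Alox5ap*. Without WT replicate 1 the difference of *Ptgs2* was −0.38, and its adjusted p values over all alternatives ran from 0.65 to 0.97. The mean of *Ptgs2* in the *SOD1* G93A libraries was 8407 RPM with replicate 3 and 9939 without it, beside 9238 in WT.

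LPS-treated *SOD1* G93A microglia and quiescent WT microglia differ in both genotype and treatment, so their normalized counts stand side by side with no test. *Ptgs2* had a mean of 498 in the quiescent WT and 55017 in the LPS-treated *SOD1* G93A libraries. *Hpgd* had 3321 and 83.7, and *Alox5ap* 622 and 74.9. This and the WT comparison share the quiescent libraries.

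Other genes of the eicosanoid pathway, 76 in all in 10 groups from arachidonic acid release to leukotriene breakdown, were listed by their known roles with earlier results of these data in view. Their counts, medians and p values in every comparison are therefore not independent of that choice. In WT astrocyte activation 40 of them were tested, 5 were called higher (5.999% of all genes tested were) and 3 lower (5.54%), and their median log2 difference was 0.16, beside 0.01 for all genes tested. *Pla2g4a*, the cytosolic phospholipase that releases arachidonic acid, was at 12.4, 8.80 and 9.83 RPM in quiescent and 61.2, 54.2 and 50.4 in activated WT astrocytes, a rise of 2.43 (adjusted p = 3.9e-07, limma). *Ptgr1*, a reductase that inactivates prostaglandins and leukotriene B, was at 6.94, 4.12 and 5.72 and then 30.9, 31.8 and 25.0, a rise of 2.39 (adjusted p = 4.0e-06). Both were several times higher in every activated library. *Faah*, which hydrolyses fatty acid amides such as anandamide, fell (−2.18, adjusted p = 3.4e-06), and so did *Cyp2j9*, a cytochrome P450 that oxidizes arachidonic acid (−1.10, adjusted p = 3.9e-05). *Mgll*, *Ptges2* and *Abcc1* made up the other rises, and *Elovl5* the other fall.

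In *SOD1* G93A astrocyte activation 39 were tested, with 5 called higher (6.74% of all genes), 3 lower (6.40%) and a median of −0.02, beside −0.01 for all genes. *Pla2g4a* stood at 13.3, 12.8 and 10.9 RPM when quiescent and 53.5, 61.3 and 49.2 when activated, a rise of 2.20 (adjusted p = 4.3e-09, limma). *Ptges2*, a further prostaglandin E synthase, stood at 25.8, 28.5 and 29.5 and then 82.8, 98.5 and 75.9, a rise of 1.68 (adjusted p = 9.4e-09). Neither gene overlapped between states. *Faah* fell by 1.87 on the log2 scale (adjusted p = 1.8e-07), and the secreted phospholipase *Pla2g3* by 1.46 (adjusted p = 0.00091). *Mgll*, *Ptgr1* and *Abcc1* were the other genes called higher and *Cyp2j9* the other called lower.

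In WT microglia under LPS 39 of the 76 were tested, 4 were called higher (10.2% of all genes tested were) and 12 lower (10.6%), with a median of −0.49 beside 0.00 for all genes. As the list was made with earlier results in view, these counts are a description. *Fpr1* and *Fpr2*, receptors for formyl peptides of which the latter also binds lipoxin, rose from 2.46, 2.35 and 2.02 to 312, 266 and 258 and from 0.591, 0.392 and 0.288 to 76.0, 61.6 and 58.0 RPM. The log2 differences were 7.04 (adjusted p = 3.7e-11, limma) and 6.97 (adjusted p = 2.1e-09). No quiescent library held more than 6 reads of *Fpr2*, so the size of its value rests on few reads. *Ltc4s*, the leukotriene C synthase, stood at 13.2, 15.3 and 10.9 and then 0.739, 0.785 and 0.214 RPM, a fall of −4.05 (adjusted p = 6.9e-06). *Mgst3*, a glutathione transferase that can carry out the same step, changed by −3.22 (adjusted p = 5.0e-07). No LPS-treated WT library held more than 6 reads of *Ltc4s*, so the size of its value rests on few reads. *Acsl4* and the prostacyclin receptor *Ptgir* were the other rises. The remaining falls were *Pla2g15*, *Pla2g16*, *Dagla*, *Daglb*, *Fads1*, *Elovl5*, *Tbxas1*, *Akr1b3*, *Cyp4f16* and *Ephx1*.

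Between quiescent cell types 42 were tested, with 19 called higher (22.5% of all genes) and 10 lower (24.8%) in microglia and a median of 0.99, beside −0.04 for all genes. These counts too are a description, for the same reason. The thromboxane synthase *Tbxas1* stood at 1.98, 1.92 and 3.67 RPM in astrocytes and 119, 146 and 125 in microglia (6.18, adjusted p = 3.0e-09, limma). *Dpep2*, a dipeptidase that trims leukotriene D, differed by 6.01 (adjusted p = 9.4e-09). No astrocyte library held more than 4 reads of *Dpep2*, so it passed the filter through microglia and the size of its value rests on few reads. *Faah* and *Cyp2j9* differed by −5.99 (adjusted p = 4.5e-06) and −5.41 (adjusted p = 2.6e-07), with the lower levels in microglia. *Faah* stood at 0.788, 0 and 0 RPM in the microglial libraries. The sizes of the *Faah* and *Cyp2j9* values rest on few microglial reads, at most 8 and 4 in a library. In the genotype comparisons limma called 0 of 41 pathway genes in quiescent astrocytes, 0 of 40 in activated astrocytes and 0 of 38 in LPS-treated microglia, with 5, 12 and 5 at an unadjusted p value under 0.05. Of all genes, 8.70%, 20.4% and 8.71% had one. DESeq2 and edgeR also called 0 in each, and the medians were 0.11, −0.01 and 0.09, beside 0.00, 0.00 and 0.01 for all genes.

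Of 12 microglial markers, 12 were called higher in quiescent WT microglia than in astrocytes, and of 10 astrocyte markers tested, 10 were called lower. The quiescent astrocyte libraries also held the oligodendrocyte lineage gene *Olig1*, at 1727 to 2262 RPM. In quiescent WT microglia the microglial markers summed to 11600.5, 12151 and 11408 RPM, with *Csf1r* the most abundant. In LPS-treated WT microglia the microglial markers summed to 3706, 3408 and 3451, and 8 of 12 were called lower, *P2ry12*, *Tmem119* and *Cx3cr1* among them, while the sorting antigen gene *Itgam* was not. The sums in LPS-treated *SOD1* G93A microglia were 3794, 3740.1 and 5276. The marker sum was thus low in the same libraries as *Hpgd*, *Ptgs1*, *Alox5* and *Alox5ap*, and *SOD1* G93A replicate 3 was the highest LPS-treated library for it. Between genotypes under LPS 11 of 12 were higher in *SOD1* G93A microglia, with a median of 0.33 and 3 at an unadjusted p value under 0.05, and of the border macrophage and monocyte markers 1 of 4 tested was higher, with a median of −0.45 and 2 at such a value. The part of a change in marker-bearing cells in these levels was not tested.

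Microglial markers were present in astrocyte cultures at low levels, 208, 343 and 182 RPM in activated WT and 255, 179 and 189.7 in activated *SOD1* G93A libraries. Between states 0 of 10 tested were called in either genotype by limma, with 0 at an unadjusted p value under 0.05 in WT and 9 in *SOD1* G93A astrocytes, where the median log2 difference was −0.67. Astrocyte markers summed to 4277 to 6353 RPM in astrocyte libraries, *Slc1a3* leading, and 139.5 to 235 in microglial ones. In WT activation 10 of 11 tested were lower, with a median of −0.81 and *Aldoc*, *Hepacam* and *Fgfr3* called lower. In *SOD1* G93A activation the median was −0.45, with *Aldoc* and *Fgfr3* called lower and *Gfap* called higher. Their part in the activation results was not tested.

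Of 8 mast cell markers, listed because mast cells are rich in *Hpgds*, *Ptgs1* and *Alox5*, the defining *Cma1*, *Tpsb2*, *Tpsab1*, *Mcpt4*, *Ms4a2* and *Fcer1a* had 0 reads in every library, and the sums of 0 to 1.72 RPM in microglia were nearly all *Kit*. The 8 border macrophage and monocyte markers summed to 41.0, 43.9 and 42.4 RPM in quiescent WT microglia and 241, 183 and 182 in LPS-treated ones. Of 5 tested, 4 were higher with LPS, 3 of them called, and 1 was more than 2-fold lower. That gene was *Mrc1*, with means of 3.51 RPM in quiescent and 0.367 in LPS-treated WT microglia. *Ms4a7* was the most abundant, the defining *Lyve1* had 0 reads in every library, and *Cd163* had 0 in both WT conditions. In the LPS-treated *SOD1* G93A libraries the sums were 196, 182 and 147. Their part in the LPS levels was not tested.

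Oligodendrocyte lineage markers summed to 3024 to 3602 RPM in quiescent and 1106 to 1198 in activated astrocyte libraries, with *Olig1* leading. Of 10 tested, 4 were called lower in WT activation (median −0.59) and 3 in *SOD1* G93A activation (median −0.36), where *Ptgds*, known from oligodendrocytes as well as meninges, was called lower too. Pericyte, fibroblast and meningeal markers summed to 54.4 to 102 RPM over the astrocyte libraries, with *Acta2* the most abundant in the quiescent ones. Within that list *Dcn* and *Lum* were called higher and *Acta2* lower in WT activation, and *Pdgfrb*, *Dcn* and *Lum* were called higher in *SOD1* G93A activation. Neuronal markers summed to 769.8 to 1013 in quiescent and 409 to 472 in activated astrocytes, mostly *Map2*, which was called lower in both genotypes. The other neuronal markers tested went against the sum in WT astrocytes and both ways in *SOD1* G93A astrocytes. In WT activation 6 of 7 tested were higher, with a median of 0.97 and *Tubb3* and *Nefl* called higher. In *SOD1* G93A activation 3 of 6 tested were higher and 2, *Map2* among them, more than 2-fold lower, with a median of 0.03 and *Tubb3* called higher. Endothelial markers summed to 7.90 to 14.7 and 112 to 154, nearly all *Flt1* after activation, with the defining *Cldn5* and *Ly6c1* at 0 in every library. In microglia the oligodendrocyte lineage list summed to 1350.2, 1375 and 1389.9 when quiescent and 144, 143 and 145 after LPS, mostly *Cspg4* in the former. The endothelial list summed to 24.7 to 75.7 in the microglial libraries, the pericyte list to 24.0 to 40.0 and the neuronal list to 9.89 to 19.2. The part of these cells in the levels was not tested.

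The genes most like *Hpgd* over the 21 libraries, by Pearson r of log2 RPM among 12536 genes, were *Itgb5* (0.990), *Cd34* (0.985), *P2ry12* (0.984), *Notch4* (0.983) and *Cspg4* (0.982). Those most like *Ptgs2* were *Cxcl2* (0.994), *Socs3* (0.993), *Acpp* (0.991), *Il6* (0.991) and *Ptges* (0.991). The points share conditions and form clusters by cell type and treatment, so the values are a description. *Hpgd* itself had an r of −0.249 with *Ptgs2*, and 0.939 and 0.912 with *Alox5* and *Alox5ap*.

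The genes lie on chromosomes 1 (*Ptgs2*), 2 (*Ptgds*, *Ptges* and *Ptgs1*), 5 (*Alox5ap*), 6 (*Hpgds* and *Alox5*), 8 (*Hpgd*), 14 (*Ptger2*) and 15 (*Ptger4*). RefSeq promoter windows on GRCm38.p6, 250 bases before to 50 after the annotated start, matched 9 of the 10 (all but *Alox5ap*). The windows of *Ptgs2* and *Ptges*, which rose together in astrocytes, and of *Hpgd* and *Ptgs1*, which stood lower in LPS-treated microglia, are shown. They were searched on both strands for the NF-kB consensus, the cyclic AMP response element TGACGTCA, its half-site TGACG, which is contained in the full element, the E-box CANNTG and the TATA box TATAAA. Capitals mark matches to all but the E-box. Of 32851 promoter windows, 8.46% held the NF-kB consensus, 1.79% the full element, 20.8% the half-site, 72.3% an E-box and 13.6% the TATA box.

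The windows are chr1:150099781-150100080 on the plus strand for *Ptgs2*, chr2:30903248-30903547 on the minus strand for *Ptges*, chr8:56294302-56294601 on the plus strand for *Hpgd* and chr2:36230176-36230475 on the plus strand for *Ptgs1*, each written 5′ to 3′ on the strand of its gene.
Ptgs2: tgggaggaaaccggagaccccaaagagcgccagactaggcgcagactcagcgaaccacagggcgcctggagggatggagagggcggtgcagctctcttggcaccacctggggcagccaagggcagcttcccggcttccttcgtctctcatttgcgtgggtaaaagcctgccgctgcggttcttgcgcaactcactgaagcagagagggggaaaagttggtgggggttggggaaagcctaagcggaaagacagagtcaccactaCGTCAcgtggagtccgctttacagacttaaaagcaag
Ptges: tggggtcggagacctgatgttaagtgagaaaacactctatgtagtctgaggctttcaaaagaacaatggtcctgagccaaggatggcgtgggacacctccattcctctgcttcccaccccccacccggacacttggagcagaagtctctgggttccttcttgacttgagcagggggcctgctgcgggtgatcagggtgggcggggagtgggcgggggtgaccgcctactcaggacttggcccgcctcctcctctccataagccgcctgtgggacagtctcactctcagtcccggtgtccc
Hpgd: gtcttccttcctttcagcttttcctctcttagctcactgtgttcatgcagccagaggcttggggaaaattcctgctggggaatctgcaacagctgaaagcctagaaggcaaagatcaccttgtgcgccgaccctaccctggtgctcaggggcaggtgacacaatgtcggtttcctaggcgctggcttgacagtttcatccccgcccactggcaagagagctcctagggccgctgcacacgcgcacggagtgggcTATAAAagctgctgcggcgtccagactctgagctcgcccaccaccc
Ptgs1: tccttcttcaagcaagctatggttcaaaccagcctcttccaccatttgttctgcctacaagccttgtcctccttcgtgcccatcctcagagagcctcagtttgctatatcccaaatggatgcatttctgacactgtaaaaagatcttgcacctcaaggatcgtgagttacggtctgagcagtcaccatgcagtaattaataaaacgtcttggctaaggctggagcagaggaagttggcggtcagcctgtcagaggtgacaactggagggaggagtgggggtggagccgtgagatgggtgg

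The *Ptgs2* window held 1 half-site, on the other strand and overlapped by an E-box, and 3 E-boxes in all. The *Ptges* window held 1 E-box and the *Ptgs1* window 3, with no match to the other motifs. The *Hpgd* window held 1 match to the TATA box letters and 2 E-boxes. That match begins at base 5 after the annotated start, and the *Ptgs2* half-site at base 14 after its own. A match describes the letters in the window and is not a measured binding site, and the absence of one says only that these letters are not in this window. Of the windows not printed, those of *Hpgds* and *Ptger2* held 2 and 3 E-boxes, those of *Ptger4* and *Alox5* held no match, and that of *Ptgds* had 1 match to the NF-kB consensus and 3 E-boxes.

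Some of the genes share exon bases with genes on the opposite strand, *Ptgs1* with *Gm43621*, *Ptger2* with *Gm49364* and *Gm17173*, *Ptger4* with *Ttc33* and *Gm15937*, and *Alox5ap* with *Gm19719*. The libraries were strand specific, but the strand setting of the counting is not given in the labels or methods read here, so reads of such pairs cannot be told apart from these tables. *Ttc33* stood at 16.7 to 18.2 RPM in LPS-treated WT and 20.03 to 25.9 in quiescent WT microglia. In WT astrocytes it stood at 17.4 to 19.9 RPM when quiescent and 20.9 to 28.5 when activated. The *SOD1* G93A astrocytes had 20.7 to 24.0 and 24.7 to 29.3, so *Ttc33* was above *Ptger4* in every astrocyte condition. Its part in the levels of *Ptger4* was not tested. The antisense transcript *Ptgs2os* stood at 0 to 0.288 RPM in quiescent and 14.4 to 16.5 in LPS-treated WT microglia, a small level beside that of *Ptgs2*.

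Levels of RNA in cultured glia were measured, and neither enzyme activity nor any prostaglandin or leukotriene was. Differences between genotypes smaller than the spread of 3 libraries would not be seen, and what the genes show under LPS in WT microglia is a description, since those values were in view when the genes were listed.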

How the data were processed

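The text rests on 21 bulk RNA-seq libraries in 7 conditions. Microglia of quiescent *SOD1* G93A cultures (3 libraries) were not analysed here. Alignment by the authors used STAR 2.7.3a and mm10, followed by RSEM. The 6 deposited tables used, each of a pair of conditions, hold a signal per library, the normalized count. It was scaled by the authors with DESeq2 size factors of that table. The authors' own fold changes and p values in those tables were not used. After division by the value of a single read in its column, 100% of values were whole (tolerance 0.01), and these recovered reads gave the depths, the RPM and the inputs to edgeR 4.0.16 and DESeq2 1.42.0, which were run as alternatives.

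The test was that of limma 3.58.1 in R 4.3.3, for genes whose mean reached 10, applied to log2(normalized count + 1) with a trend of variance on level. Where no table holds both groups (*SOD1* G93A activation, the cell types, the interaction), recovered reads scaled by median-of-ratios took the place of the normalized counts. Adjustment of p values followed Benjamini and Hochberg, over all genes tested. Calls needed an adjusted p value under 0.001 and more than a 2-fold change. Exon lengths come from GENCODE on GRCm38, and the annotation used in counting is not stated.

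The 10 genes, the pathway list of 76 genes, the 8 marker lists and the tests were chosen with earlier results of these data known. Named besides the 10 genes are the pathway genes called (between cell types only the 4 with values), with values for the 2 largest rises and 2 largest falls in each comparison, the 5 genes most like *Hpgd* and *Ptgs2*, and the leading and defining markers. Alternatives were other pseudocounts, filters, scalings, limits and tools, each library left out, and the replicate number used as a block.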

Additional observations from a re-analysis of the deposited data

Results flagged for a closer look

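*Ptger4* had log2 differences of opposite sign under the stimuli of both WT cell types. Its log2 difference was 1.23 in WT astrocytes under activation, where limma did not call it (adjusted p = 0.040, 0.0044 to 0.14 over all alternatives) and the lowest quiescent library held 2 reads, and −1.51 in WT microglia treated with LPS. Cell type and stimulus change together here, and the difference was not tested. *Ptger4* also shares exon bases with *Ttc33*, whose part in these levels was not tested. The microglial value was in view when the genes were listed.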

How the results depend on the processing

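No result changed its direction to a called change of the opposite sign under the alternatives run. With the limit at an adjusted p value under 0.05 and none on fold change, 4 of the 10 genes were called in WT astrocyte activation in place of 2. The same limit called 23 pathway genes in WT and 23 in *SOD1* G93A astrocyte activation in place of 8 each, 30 in LPS-treated WT microglia in place of 16, and 6 between genotypes in activated astrocytes in place of 0. Requiring at least 10 in every library left 18 pathway genes called between cell types in place of 29. Of the 10 genes it left 3 past the limits in place of 9, and nothing is read from those counts, as those libraries were in view. Genes near 0 in one cell type are then not tested. With the replicate number as a block (replicate block, paired by number), 2 of the 10 genes were called in WT and 3 in *SOD1* G93A astrocyte activation, and 0 in each genotype comparison, the same counts as without it. Libraries of like number showed little likeness beyond their group (lowest Pearson r across genes 0.01 to −0.50 by comparison). In WT astrocyte activation these r were 0.07, 0.05 and 0.01. Deviations from a mean of 3 libraries cannot settle whether the numbers mark pairs, and the labels do not say.

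Of the single-gene log2 differences under all alternatives, 905 stayed the same by call or, for the LPS differences given with no test, by spread, among them small differences that were not called and changed sign, 11 passed the limits where they had not, and 8 no longer passed. Of these 8, 7 were of *Ptgs2* between cell types and 1 was the call of *Ptges* in *SOD1* G93A astrocyte activation. The 7 rest on libraries in view when the genes were listed, so nothing is read from them. Of the LPS differences in WT microglia, given with no test, that of *Hpgds* moved beyond the spread of its replicates, from −0.38 to −0.54 after quantile normalization (1 in all). With TMM scaling 36 of the 70 mean levels moved by more than 1 SD and 34 did not. The filter at a mean of 10 over both groups left *Ptger2*, *Alox5* and *Alox5ap* without a test in astrocyte activation, and *Ptgds* without one in microglia. *Alox5ap* had means of 9.79 in the quiescent and 6.74 in the activated WT libraries.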
